A study of Mus musculus with 8 samples.

Results

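The granins and other proteins of the secretory vesicles of neuroendocrine cells were followed through sorted mouse Paneth cells that were heterozygous or null for Mll1. The set holds 10 genes of the 53801 in the count table, chosen by name. They are the granins Chga, Chgb, Scg2 and Scg3, the chaperone Scg5, the processing enzymes Pcsk1, Pcsk2 and Cpe, the vesicle membrane protein Syp and the calcium sensor Scgn. All 10 had enough counts to enter the test.

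RNA was sequenced from 8 libraries of small intestinal crypt cells, 4 controls (β-catGOF; Mll1+/-) and 4 knockouts (β-catGOF; Mll1-/-). The mice were injected with 1 mg tamoxifen on 3 consecutive days and the cells were taken at day 10 after induction. By the labels and most of the study's text both groups carried a stabilized β-catenin allele, which 1 passage of its methods does not name, and the labels were followed here. The controls had lost 1 of the 2 copies of Mll1. Recombination was driven by Lgr5-EGFP-IRES-CreERT2, which acts in stem cells and can leave crypts without recombination. From immunohistochemistry, the study reported that all crypt cells, Paneth cells included, lacked Mll1 at the time of sorting. Viable EpCAM+ Cd24+ cells were pooled in 1 tube per library with no gate on recombination. Each tube held a small number of cells, and their cDNA was amplified by the Smart-seq2 protocol. A rare cell type could thus rest on few cells in a library.

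Granins are acidic proteins that condense in the trans-Golgi network and help to form dense-core granules, the hormone stores of endocrine cells and neurons. Inside the granule, prohormone convertases cleave hormone precursors and carboxypeptidase E trims the basic residues left at the cut. In the intestine these genes are known as markers of enteroendocrine cells, the hormone-producing cells that arise from the same secretory progenitors as Paneth cells. Paneth cells store defensins and lysozyme in granules of another kind.

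The Paneth label was borne out by the most abundant of its markers. Summed normalized CPM (read counts divided by library size after scaling with TMM factors) of 11 Paneth genes, led by the defensin Defa24, the lysozyme Lyz1 and the intelectin Itln1, lay between 264000 and 560000 in 7 libraries and at 743000 in knockout 3. The 10 granin and granule genes together lay between 36.9 and 494. Gene count totals ran from 13037832 to 14380240, with every knockout below every control. Knockout 3 stood apart in its scaling factor, 0.632 against 0.821 to 1.34 in the other 7 libraries, and in its 19662 genes with a count. Kmt2a, the gene of Mll1, lay between 22.5 and 45.2 in the controls and between 25.7 and 38.6 in the knockouts. Its log2 fold change was -0.062 ± 0.24 (SE). The table sums reads over the whole gene, not over the deleted part, so this value cannot check the genotype of a library.

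A cAMP response element, the 8 bases TGACGTCA, lies just before the start of several genes that code for granule proteins. RefSeq sequences of GRCm38.p6 from 250 bases before to 50 after the start were available for 9 of the 10 genes, all but Cpe. Both strands of the 250 upstream bases were searched. The element was found for Chgb, Scg2 and Pcsk1, 3 of the 9, against 1.55% of 32851 promoters. Of the forms with 1 changed base only TGACGTAA was searched, and it was found for Chga and in 0.447% of all promoters. This share does not say how often any form with 1 changed base occurs. Among the other listed genes with a sequence, Sst and Pax6 held the first form, 2 of 91. Each line below gives 30 bases on the strand of the gene, with the element in capitals, because each of the 4 promoters held 1 of the 2 forms.
Chga: gggcggtcctaTGACGTAAtttcctgggtg
Chgb: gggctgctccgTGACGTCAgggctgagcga
Scg2: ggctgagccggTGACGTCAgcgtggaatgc
Pcsk1: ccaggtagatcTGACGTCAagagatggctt

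The stretch of Chga is chr12:102554886-102554915 on the plus strand, and its element begins 44 bases before the RefSeq start. That of Chgb is chr2:132781559-132781588 on the plus strand, 72 bases before the start. Scg2 has it at chr1:79440076-79440105 on the minus strand, 68 bases before, and Pcsk1 at chr13:75089768-75089797 on the plus strand, 78 bases before. In the annotation used for counting, which starts Chgb and Scg2 further upstream, the stretches of these 2 genes overlap an exon, and those of Chga and Pcsk1 lie outside the gene. A match of letters is a description and says nothing of whether a factor binds there.

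None of the 10 genes passed both thresholds between genotypes, which asked of edgeR's quasi-likelihood test an adjusted p no higher than 0.05 with a log2 fold change of 0.5 or more in size, while 25 of 13439 genes (0.186%) did. At an unadjusted p under 0.05, 5 genes had a lower level in the knockouts, namely Chga, Chgb, Scg3, Pcsk1 and Cpe, and none a higher one. Over all tested genes 2.53% were lower and 4.35% higher by that measure. The DESeq2 Wald test called 1 gene, Chga, where it called 1.03% of 13423 genes, and limma-voom called none of the 10 and 0.707% of all tested genes. In edgeR with no filter on low counts 2 genes were called, Scg3 and Pcsk1, beside 0.783% of all genes then tested. The log2 fold change was negative for 8 genes and positive for 2, with a median of -0.98 beside 0.0085 over all tested genes. For none of the 10 were the groups free of overlap, where 1.93% of tested genes had every knockout below every control. In such bulk samples fewer cells of a type and less RNA per cell cannot be told apart.

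**Figure D1:**
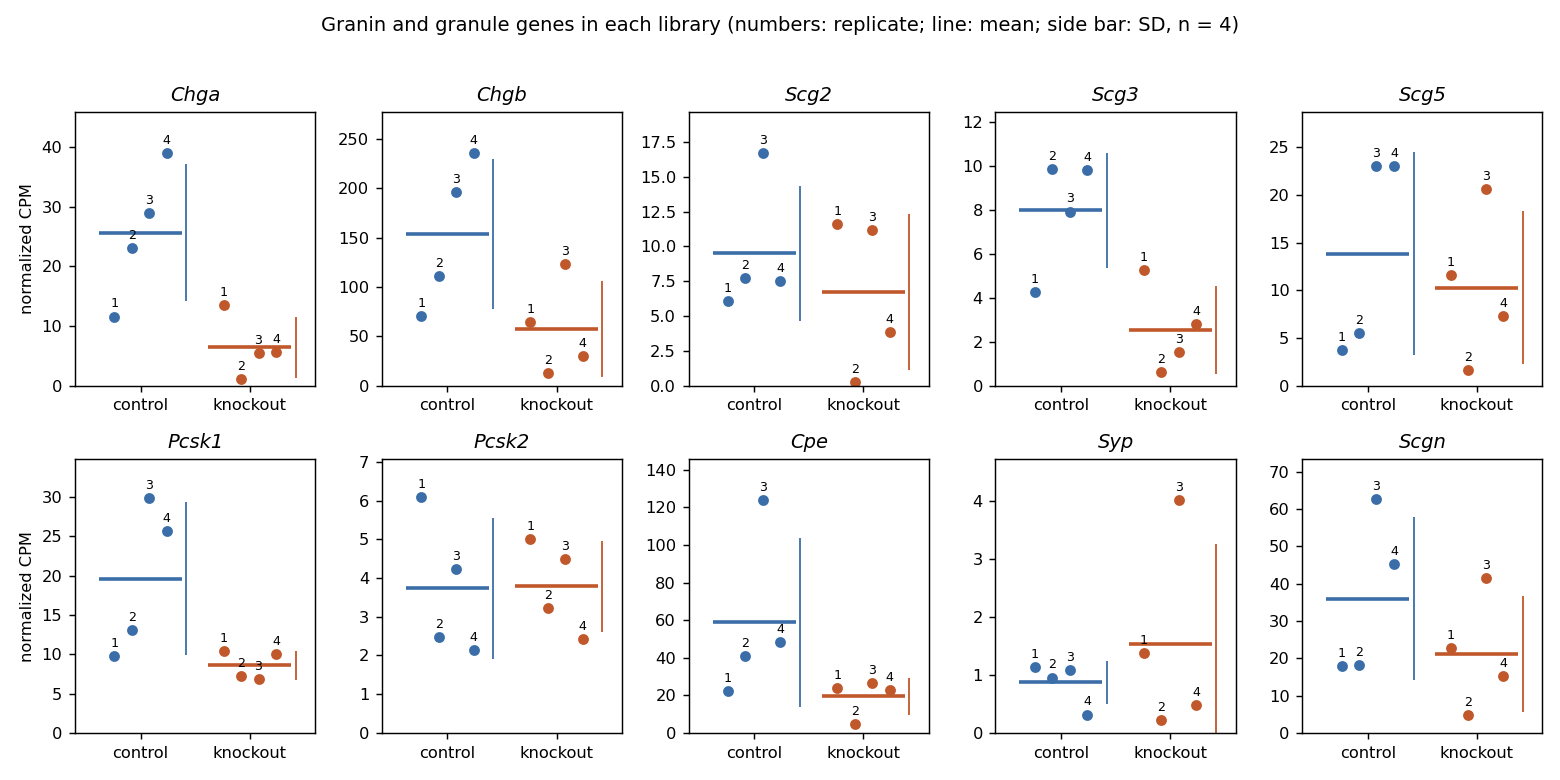
Normalized CPM of each of the 10 genes (y axis, linear from 0, 1 panel per gene) in the 4 controls and 4 knockouts, with the replicate number at each point, the mean as a line and the SD as a side bar. Knockout 2 is the lowest of the 8 libraries for 8 genes, and the knockouts overlap the controls in every panel.

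Chga and Chgb, the chromogranins that make up much of the granule matrix, had the lowest values in the same library. Chga (ENSMUSG00000021194, chromosome 12) measured 11.6, 23.1, 28.9 and 39 CPM in controls 1 to 4 and 13.5, 1.15, 5.54 and 5.6 CPM in knockouts 1 to 4. Knockouts 2, 3 and 4 lay below all controls, and knockout 1 lay above control 1. The means were 25.6 ± 11.4 and 6.45 ± 5.15 CPM (SD, n = 4), 3.97 times apart. Its log2 fold change was -1.98 ± 0.57 (SE) with an adjusted p of 0.387 in edgeR and 0.0361 in DESeq2, and the exact two-sided permutation test over the 8 libraries gave p = 0.0571, where 0.0286 is the smallest it can give.

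Chgb (ENSMUSG00000027350, chromosome 2) measured 70.4, 111, 196 and 236 CPM in the controls and 64.7, 12.8, 123 and 30 CPM in the knockouts. Knockout 3 lay inside the control range, knockout 1 just below it, and knockouts 2 and 4 well below it. In the fit it had a log2 fold change of -1.42 ± 0.59 (SE), with an adjusted p of 0.670 in edgeR and an exact permutation p of 0.114. It was -2.10 without knockout 3 and -1.08 without knockout 2.

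Scg2, the precursor of secretoneurin, measured 6.1, 7.72, 16.7 and 7.52 CPM in the controls and 11.6, 0.288, 11.2 and 3.89 CPM in the knockouts. Knockouts 1 and 3 were above 3 of the 4 controls, and the value of knockout 2 rested on 5 reads. Its log2 fold change of -0.51 ± 0.71 (SE) had an adjusted p of 0.970 in edgeR and became -0.093 without control 3, -0.93 without knockout 1 and -1.85 in limma-voom, where the adjusted p was 0.42. Scg3, which binds Chga and ties it to the granule membrane, measured 4.28, 9.87, 7.92 and 9.82 CPM in the controls and 5.24, 0.634, 1.53 and 2.8 CPM in the knockouts. Only control 1 and knockout 1 overlapped, as for Chga. The log2 fold change of Scg3 was -1.62 ± 0.53 (SE), with an adjusted p of 0.479 in edgeR and an exact permutation p of 0.0571. In the fit with no filter on low counts its adjusted p was 0.00332.

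Scg5, also called 7B2, is the chaperone that keeps Pcsk2 inactive until it reaches the granule. It measured 3.77, 5.49, 23 and 23 CPM in the controls and 11.6, 1.61, 20.6 and 7.3 CPM in the knockouts. Controls 1 and 2 were near the bottom of the range and only knockout 2 lay under them. The log2 fold change was -0.44 ± 0.71 (SE), with an adjusted p of 0.972 in edgeR, and it went to -1.01 without knockout 3 and to -0.073 without knockout 2.

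Pcsk1 and Pcsk2, the convertases that cut prohormones at paired basic residues, gave different values from each other. Pcsk1 measured 9.74, 13.1, 29.9 and 25.7 CPM in the controls and 10.4, 7.2, 6.83 and 9.98 CPM in the knockouts. The knockouts were tightly grouped, with 8.59 ± 1.83 CPM against 19.6 ± 9.7 (SD, n = 4), and the overlap came from control 1. Its fold change of -1.18 ± 0.34 on the log2 scale (SE) had smallest SE among the 10 genes, with an adjusted p of 0.390 in edgeR, an exact permutation p of 0.0857 and an adjusted p of 0.00196 in the fit with no filter. The difference of mean log2 levels was -0.37 among controls and knockouts 1 and 2 and -1.69 among controls and knockouts 3 and 4, which are the 2 runs of label numbers.

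Pcsk2 measured 6.1, 2.47, 4.23 and 2.14 CPM in the controls and 5, 3.23, 4.48 and 2.43 CPM in the knockouts. All 4 knockouts lay within the control range, and it was the only one of the 10 genes for which knockout 2 did. Its log2 fold change was 0.01 ± 0.40 (SE), with an adjusted p of 0.998 in edgeR. Reads of Pcsk2 share 3.3% of its exon bases with the antisense gene Pcsk2os1, and the strand setting of the counting is not given in the sources used here.

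Cpe, the carboxypeptidase that completes the cut, measured 22.3, 40.7, 124 and 48.1 CPM in the controls and 23.7, 4.95, 26.6 and 22.9 CPM in the knockouts. Control 3 was far above the rest and knockouts 1, 3 and 4 lay between controls 1 and 2. In the same fit Cpe had a log2 fold change of -1.59 ± 0.56 (SE), with an adjusted p of 0.533 in edgeR and an exact permutation p of 0.114. Without control 3 it was -0.93.

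Syp, the synaptophysin of small clear vesicles, had the fewest reads, between 4 and 34 per library. It measured 1.13, 0.955, 1.08 and 0.317 CPM in the controls and 1.37, 0.23, 4.01 and 0.487 CPM in the knockouts. Knockout 3 alone carried the higher mean of the knockouts, and the log2 fold change of 0.73 ± 0.79 (SE, adjusted p = 0.949 in edgeR) turned to -0.33 without it. A share of 16.8% of the exon bases of Syp overlaps Gm14703, so its reads are uncertain.

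Scgn, the EF-hand calcium sensor secretagogin, measured 17.9, 18.1, 62.6 and 45.4 CPM in the controls and 22.8, 4.72, 41.6 and 15.3 CPM in the knockouts. Controls 1 and 2 sat with knockouts 1 and 4, and controls 3 and 4 with knockout 3. The fit gave Scgn a log2 fold change of -0.78 ± 0.57 (SE), with an adjusted p of 0.897 in edgeR. It was -0.38 without control 3, -1.34 without knockout 3 and -1.47 in limma-voom, where the adjusted p was 0.291.

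**Figure D2:**
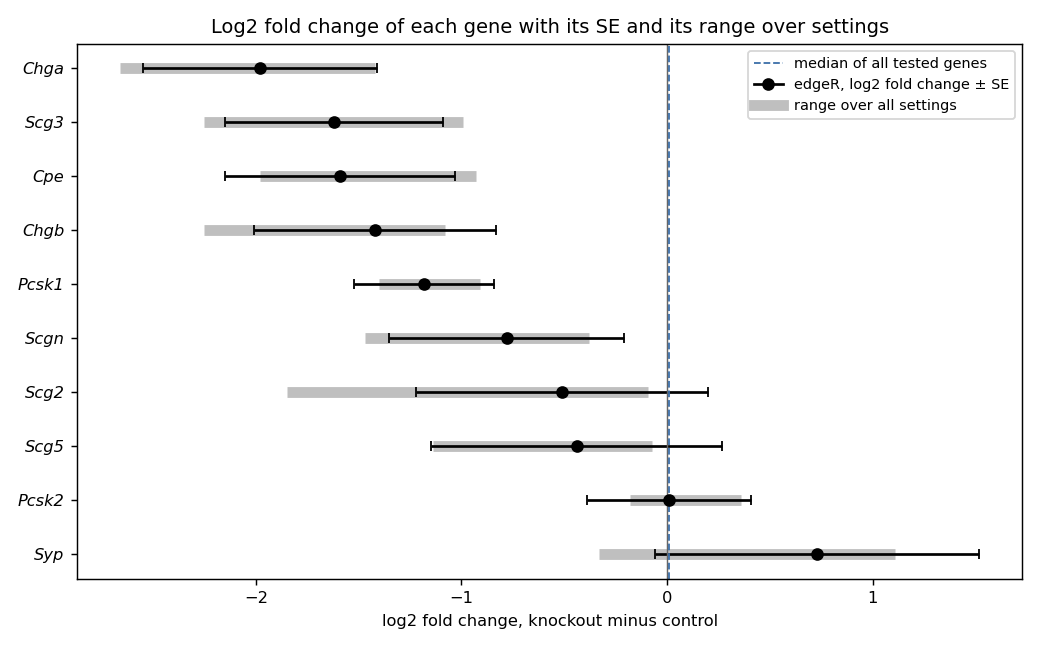
Log2 fold change of each gene, knockout minus control (x axis), from edgeR with its SE (black) and the range over all settings tried (grey bar). Chga, Scg3, Cpe, Chgb and Pcsk1 lie below -0.9 in every setting, and the bars of Pcsk2 and Syp cross 0.

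The order of the genes was set by level per kilobase of exon, since raw CPM grows with gene length. Chgb led the controls with 56 ± 27.8 CPM per kilobase (SD, n = 4), followed by Cpe with 22.5 ± 17.1 and Scgn with 22.2 ± 13.5. Chga had 9.3 ± 4.15 and Scg5 8.81 ± 6.77 CPM per kilobase. Scg2, Pcsk1 and Scg3 lay between 2.91 and 3.78. The ranges of neighbours in this order overlapped from Chgb down to Scg3, so their order is not firm. Pcsk2 with 0.472 ± 0.231 and Syp with 0.167 ± 0.0723 CPM per kilobase each lay below all controls of the gene above them. Pcsk1 thus stood above Pcsk2 in each control, by 3.49 to 0.472 CPM per kilobase in the mean. Dividing by the longest transcript in place of all exons exchanged Scg2 and Pcsk1 in the controls, with 3.78 and 3.89 CPM per kilobase, and left the other ranks as they were.

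**Figure D3:**
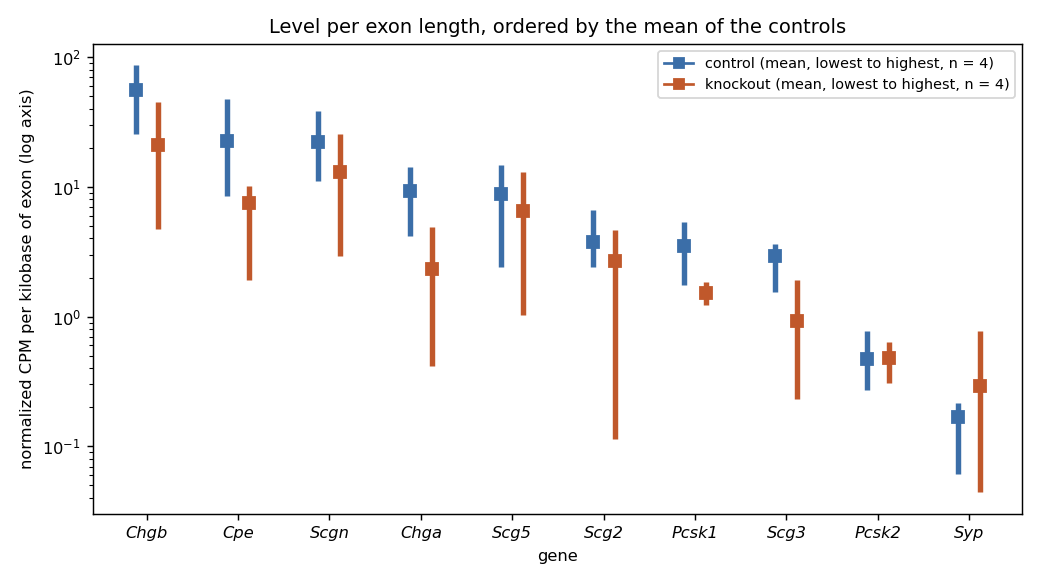
Normalized CPM per kilobase of exon (log axis) for the 10 genes, ordered by the mean of the controls, with the mean (square) and the lowest to highest library (bar) of each genotype. Chgb is the top gene in both groups, and Pcsk2 and Syp are the lowest in the controls.

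Knockout 2 had the lowest value of all libraries for 8 of the 10 genes. In it 9 of the 10 genes lay below all controls, where 20.2% of all tested genes did, and none above them, where 21.2% did. The summed level of the 10 was 36.9 CPM against 101 to 246 CPM in the other knockouts and 153 to 494 CPM in the controls. Relative to the median of the other knockouts, Scg2 stood at 2.57% in knockout 2, Chga at 20.6%, Chgb at 19.9% and Cpe at 20.9%, but Pcsk1 at 72.2% and Pcsk2 at 72%. The convertases therefore made up more of the small sum that was left, with Pcsk1 at 19.5% of it in knockout 2 and at 2.78% to 9.91% in the other 7 libraries.

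The genes were spread widely in knockout 3. Against the mean of the controls, Scg3 stood at 19.2% there, Chga at 21.6%, Pcsk1 at 34.9% and Cpe at 45.3%. Chgb was at 80.3%, Scgn at 116%, Scg2 at 118%, Pcsk2 at 120%, Scg5 at 149% and Syp at 460%. Thus 3 genes lay below all controls, 6 within their range and 1 above it. Of all tested genes 35.5% lay below all controls and 31.5% above them in this library, so only the count below all controls is near the background. In knockout 4, 5 genes lay below all controls, beside 22.4% of all tested genes, 5 within and none above, beside 23%. In knockout 1 only Chgb lay below, beside 18.6% of all tested genes, 8 lay within and Syp above, beside 20.4%.

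The genes also differed in how they moved together over the 8 libraries. As a description, Pearson's r of log2(CPM + 0.5) was 0.97 for Chga and Scg3, 0.95 for Scg5 and Scgn and 0.93 for Chgb and Scgn. It was 0.49 for Scg3 and Scg5. Pcsk2 had no r above 0.60 with another of the genes, and its r with Pcsk1 was -0.29. The points share their scaling factors, both genotypes and knockout 2. Chgb and Scgn had the highest level per kilobase in the mean over all 8 libraries. The genes most like Chgb were Nadk2 (r = 0.993), Apba1 (r = 0.982) and Prnp (r = 0.960), and those most like Scgn were Pim2 (r = 0.981), Sphkap (r = 0.979) and Map1b (r = 0.959).

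The hormone genes showed where the same libraries stood. No gene of the 14 on this list, 9 of them tested, passed the thresholds in edgeR, and the median log2 fold change was -1.38. Gip, the incretin of K cells, measured 204, 1120, 735 and 627 CPM in the controls and 204, 0.23, 1690 and 117 CPM in the knockouts. Ghrl, the ghrelin of X cells, measured 207, 455, 378 and 138 CPM in the controls and 134, 11.7, 841 and 76.2 CPM in the knockouts. Both were lowest in knockout 2 and highest in knockout 3. Another gene overlaps 15.7% of the exon bases of Ghrl.

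Sst, the somatostatin of D cells, measured 473, 505, 114 and 309 CPM in the controls and 496, 24.7, 0.118 and 0.122 CPM in the knockouts. It rested on 1 read in knockout 3 and 2 reads in knockout 4. Tph1, the enzyme that starts serotonin synthesis and a gene picked after its values were seen, measured 7.1, 10.3, 13.6 and 22.5 CPM in the controls and 3.16, 0, 0 and 0.122 CPM in the knockouts. Its adjusted p was 0.316 in edgeR, 0.368 in DESeq2 and 0.0696 in limma-voom. In edgeR it was 0.00117 without knockout 1 and 0.331 to 0.584 when any other single library was left out. Knockout 3 thus held the highest Gip and Ghrl of all libraries beside 1 read of Sst and none of Tph1, where 3 reads, the limit that a count of 0 allows, correspond to 0.353 CPM in knockout 3. This limit covers counting error only, since amplified reads are not independent molecules. The part of the cell mix in the granin values was not tested.

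Of 15 enteroendocrine transcription factors, 13 were tested and none passed both thresholds in edgeR, with 12 of the 13 log2 fold changes negative and a median of -1.05. Neurod1, a driver of endocrine differentiation, measured 24.8, 22.2, 57.1 and 42.2 CPM in the controls and 12.6, 3.74, 5.42 and 8.46 CPM in the knockouts. All knockouts lay below all controls, as was so for 3 of the 13 tested factors, Neurod1 included, beside 1.93% of all tested genes. Its log2 fold change was -2.27 ± 0.40 (SE) with an adjusted p of 0.0629 in edgeR, 9.65e-06 in DESeq2 and 0.0295 in limma-voom. In edgeR with upper-quartile factors it was 0.0446, and 0.0448 with at least 10 counts in every library. Isl1, a LIM factor of several hormone lineages, had a log2 fold change of -0.80 ± 0.49 (SE, adjusted p = 0.853 in edgeR), which was -0.42 without control 3 and -1.23 without knockout 4.

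Prox1, a homeobox factor present in enteroendocrine cells, went the other way. It measured 15.7, 19.3, 27.4 and 14.7 CPM in the controls and 123, 112, 24.4 and 73.6 CPM in the knockouts. Knockout 3 alone lay within the control range. The log2 fold change was 2.12 ± 0.42 (SE), with an adjusted p of 0.101 in edgeR over all libraries and 0.000303 without knockout 3. It was 9.19e-05 in DESeq2 and 0.00353 in limma-voom.

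**Figure D4:**
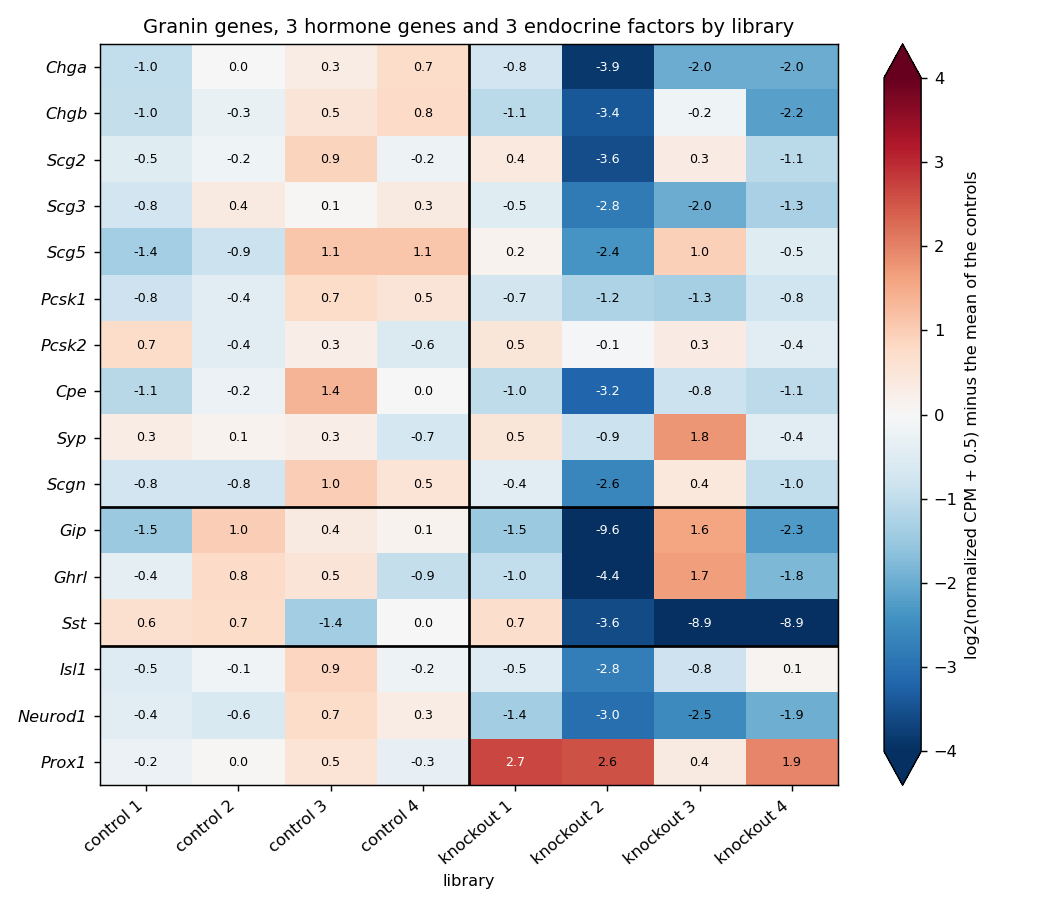
Log2(normalized CPM + 0.5) minus the mean of the controls (colour and number in each cell) for the 10 granin and granule genes, 3 hormone genes and 3 endocrine factors (rows) in the 8 libraries (columns). The column of knockout 2 is blue for all rows but Pcsk2 and Prox1, and in knockout 3 Chga, Scg3 and Pcsk1 are blue while Scg5, Syp, Gip and Ghrl are red.

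The median log2 fold change of each of the 2 other granule lists was nearer to 0 than that of the 10 genes, though single genes on them were not, and the lists were not compared by a test. Of 14 other genes for granule cargo and processing, 11 were tested and none passed the thresholds in edgeR, with a median log2 fold change of -0.24. The most abundant were Nucb2, the nesfatin precursor, with -0.085 ± 0.33 (log2 fold change ± SE), Cpd, a carboxypeptidase of the Golgi, with -0.24 ± 0.22, and Pam, which amidates peptides, with -0.51 ± 0.25. The 14 genes summed to 131 CPM in knockout 2, the lowest library, to 141 to 253 CPM in the other knockouts and to 136 to 252 CPM in the controls. Pcsk1n, the granin-like inhibitor of Pcsk1, was picked after its values were seen. It had 8 to 17 reads per control and 10, 2, 1 and 2 reads in knockouts 1 to 4, and its log2 fold change was -2.03 ± 0.66 (SE, adjusted p = 0.479 in edgeR), or -3.03 without knockout 1.

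None of 22 genes for vesicle docking and fusion, 19 of them tested, passed the thresholds in edgeR, and the median log2 fold change was -0.31. Rab27b, a granule Rab, had -0.17 ± 0.20, Slc18a1, the vesicular monoamine transporter of endocrine cells, had -0.31 ± 0.30, and Ica1, a granule trafficking protein, had 0.63 ± 0.36 (log2 fold change ± SE). Without knockout 3 the value of Ica1 was 0.15. Rab3c, another granule Rab and picked after its values were seen, measured 4.72, 2.47, 5.67 and 5.15 CPM in the controls and 1.55, 0.346, 0.353 and 0.365 CPM in the knockouts. Every knockout lay below every control, which was also so for Cplx2 and Rph3al, 3 of the 19 tested genes of the list beside 1.93% of all tested genes. Rab3c had a log2 fold change of -2.73 ± 0.56 (SE), with an adjusted p of 0.121 in edgeR, 0.000411 in DESeq2 and 0.0514 in limma-voom. In edgeR it was 0.0192 without knockout 1, 0.0454 without knockout 3 and 0.177 to 0.369 when any other single library was left out. The 22 genes summed to 107 CPM in knockout 2 and to 122 to 191 CPM in the other libraries.

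Markers of other cells of the crypt also differed between libraries, but knockout 2 was not the lowest library for the tuft, stem, goblet or enterocyte sum. The sum of 8 tuft cell genes lay between 184 and 645 CPM in the controls and between 109 and 423 CPM in the knockouts, with knockout 2 at 242, and all 7 tested genes had a negative log2 fold change with a median of -0.88. That of 7 stem cell genes lay between 724 and 1540 CPM in the controls and 288 and 969 CPM in the knockouts, with a median log2 fold change of -0.70 and 6 of 7 negative. For 10 goblet genes the sums lay between 9590 and 18400 CPM in the controls and 8340 and 19800 CPM in the knockouts, with a median of 0.13. For 9 enterocyte genes they lay between 161 and 339 CPM and between 104 and 262 CPM, with a median of -0.55 and 5 of 6 tested genes negative. Of the enteric neuron and glia genes, Nefm and Elavl4 stayed under 6 CPM and Sox10 had no read. Of 9 immune genes 7 had at most 3 reads in every library, and the sum lay between 5.76 and 29 CPM. No gene of these lists passed the thresholds in edgeR, nor did Epcam and Cd24a, the markers of the sort. In other settings the enterocyte gene Fabp2 passed with DESeq2, with limma-voom, with no filter and without knockout 4. The stem cell gene Slc12a2 passed with no filter. The part of these cells in the granin values was not tested.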

How the data were processed

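RNA of viable EpCAM+ Cd24+ crypt cells was sequenced from 4 control and 4 knockout mice, grouped by the genotype in the labels. For the deposited counts, the authors mapped reads to mm10 by GSNAP and assigned them to genes with featureCounts 1.6.3 on Ensembl annotation, without normalization. The 92 spike-in rows were left out. Symbols matched 53620 of 53801 genes. The 10 genes and all lists were chosen with earlier results of these data known. Counts were scaled with TMM factors and tested with edgeR 4.0.16 (robust quasi-likelihood, at least 10 counts by filterByExpr, no covariate), with p-values adjusted by Benjamini-Hochberg over 13439 genes. SEs were derived from the fold change and the F statistic. DESeq2 1.42.0, limma-voom 3.58.1, other scalings and filters and left-out libraries were alternatives, and the code was tested on simulated data. Named genes were all 10, plus of every other list the genes past both thresholds and the 3 with the highest mean level, plus the 3 genes most correlated with the 2 members of highest mean level per kilobase over all 8 libraries. A gene under this rule is not reported here. The sample titles carry numbers that the labels do not explain. Control 4 and knockout 4, which differ in genotype, carry the same number, which was not used.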

Additional observations from a re-analysis of the deposited data

Results flagged for a closer look

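In each genotype, the 10 genes and their sum were searched for a library far from the other 3 (gap to the nearest library over the whole range above Dixon's 95% critical value for 4 samples). Of 22 groups 2 had one, and chance gives about 1 in 20. Scg2 in control 3 measured 16.7 CPM against 6.1 to 7.72 CPM in the other controls, a gap of 0.846 of the range. Cpe in knockout 2 measured 4.95 CPM against 22.9 to 26.6 CPM in the other knockouts, a gap of 0.83 of the range.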

How the results depend on the processing

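The number of genes past both thresholds was 25 in edgeR, 290 with no filter, 13 with at least 10 counts in every library, 138 with DESeq2, 95 with limma-voom and 38 at an adjusted p of at most 0.1 with no limit on the fold change. Leaving out 1 library gave 10 to 152, with the top value without knockout 3. Without knockouts 2 and 3, an alternative chosen after seeing the data, it was 55. Of the 10 genes, 2 passed with no filter (Pcsk1 and Scg3) and 1 with DESeq2 (Chga), and none in any other setting tried. The number with an unadjusted p under 0.05 was 5, or 3 with no filter, 6 with limma-voom (Scgn added), 4 without knockouts 2 and 3, and 3 to 5 when 1 library was left out, the 3 being without control 3. Chga, Scg3 and Pcsk1 were among them in every setting. Of the other listed genes, none passed in edgeR, 1 with upper-quartile factors or at least 10 counts in every library, 9 with no filter, 5 with DESeq2, 3 with limma-voom, 1 at an adjusted p of at most 0.1, 1 without knockouts 2 and 3, and 0 to 4 when 1 library was left out, the 4 (Neurod1, Rab3c, Tac1 and Tph1) without knockout 1. The log2 fold change of Syp was -0.28 with limma-voom, and -0.33 to 1.11 when 1 library was left out. That of Pcsk2 was -0.038 with upper-quartile factors, -0.0042 with at least 10 counts in every library, -0.015 without knockouts 2 and 3, and -0.18 to 0.36 when 1 library was left out. That of Ghrl was -0.15 in edgeR with all libraries and -2.25 with limma-voom, and leaving out 1 library gave -2.0 (knockout 3) to 0.24 (knockout 2). The other 8 genes kept a negative sign in every setting in which they were tested. Blocking on the 2 runs of label numbers left all calls among listed genes as they were. The cause of these changes was not tested. Scg2 and Syp had too few counts for the filter on every library. No paired analysis was possible because the groups share fewer than 2 numbers in the labels, only the unexplained number of control 4 and knockout 4. The study's methods speak of littermates, but the labels do not give the litters. With 16.8% of exon bases shared, 4 reads in 2 libraries and no stated strand, Syp is the least certain of the 10 genes.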
